A study of Mus musculus with 7 samples.

Results

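The genes described here encode 10 transcription factors and cofactors that set the fate of hematopoietic progenitors and myeloid cells: *Erg*, *Etv6*, *Runx1*, *Cbfb*, *Myb*, *Myc*, *Ikzf1*, *Spi1*, *Gfi1* and *Id2*. They are a list of named genes, drawn up with earlier results of these data known, and all 10 were found among the 25033 gene symbols of the count tables. RNA came from lineage depleted (lin-) bone marrow cells, that is marrow from which cells with markers of mature lineages had been removed, of mice aged 6 to 8 weeks. The 3 wild type mice (Hrp2+/+, WT) were compared with 4 knockout mice (Hrp2-/-, KO) from C57BL/6N-Hdgfrp2<tm1b(KOMP)Wtsi>/Tcp, in which the gene for HRP-2 is disrupted in the whole animal and not only in marrow. HRP-2 is a chromatin protein that binds methylated histone tails and is the paralog of LEDGF/p75, a partner of the MLL and menin complex. The question was whether the loss of HRP-2 went along with a different level of these factors.

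These factors act as a network. In stem and progenitor cells ERG, RUNX1 and several others sit together on shared enhancers, RUNX1 binds DNA with CBFB as its non-DNA-binding partner, and MYB and MYC keep progenitors cycling. As cells commit, PU.1 (the product of *Spi1*) drives the monocyte and macrophage program, while GFI1 represses it and favours granulocytes. Ikaros (*Ikzf1*) primes lymphoid fate, and ID2 blocks the E proteins that lymphoid and other programs need.

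Libraries held between 3525665 and 5605158 reads on genes, and 3 reads, taken here as the floor of detection, correspond to 0.535 to 0.851 CPM (counts per 1e6 reads on genes). The floor covers counting error only. The levels below are CPM scaled with edgeR's TMM factors. *Hdgfl2*, the current symbol of the targeted gene, stood at 50.02, 43.7 and 44.6 CPM in WT replicates 1 to 3 and at 2.53, 0.623, 1.49 and 0.498 CPM in KO replicates 1 to 4, so each library matched its label. KO replicate 3 stood apart by its X-linked *Xist* (0.561 CPM, where the remaining mice had 229 to 303 CPM) and its Y-linked *Ddx3y* (104 CPM, where they had at most 0.777 CPM), and the labels give no sex. Between 4.94% and 20.6% of a library's gene reads fell on the ribosomal precursor *Rn45s*. The progenitor markers fixed for the check (*Kit*, *Cd34*, *Flt3*, *Mpo* and 6 others) were all detected. Their summed level was 8753 to 11069 CPM in WT and 7755 to 10595 CPM in KO cells. Of these 10 markers 2 had a log2 fold change above 0 and 8 below (median -0.14). Over all genes tested 49.8% were above 0. At an unadjusted p under 0.05 there were 0 of these markers, against 3.63% of all genes tested. The hemoglobin symbols *Hba-a1*, *Hbb-bs* and *Hbb-bt* were listed at 0 in all 7 mice.

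No member passed the test. Across the 11265 genes tested with edgeR's quasi-likelihood test, 2 had an adjusted p under 0.25, the threshold of the study, which is 0.0178% of them, and 0 of the 10 members did. At an unadjusted p under 0.05 there were 0 members, against 3.63% of all genes tested. The members' log2 fold changes (KO against WT) ran from -0.24 for *Erg* to 0.17 for *Spi1*, 4 above 0 and 6 below, with a median of -0.05 where the median of all genes tested was -0.0014. Each member had an adjusted p of 0.999 in edgeR's test. Across all genes tested the 5th and 95th percentiles of the log2 fold change were -0.53 and 0.48, so every member lay within that span. All 10 members were within 0.25 of 0 on this scale, as were 69.1% of all genes tested.

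**Figure D1:**
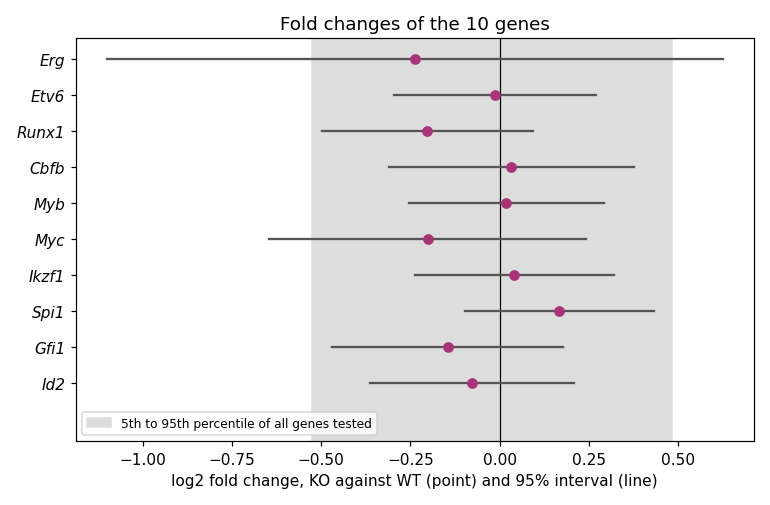
Log2 fold change of each factor, KO against WT (x axis), with the 95% interval from edgeR's fit as a line and the 5th to 95th percentile of all genes tested in grey. All 10 intervals include 0, and the widest is that of *Erg*, from -1.10 to 0.63.

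The levels of the members kept a similar order in both genotypes. Each transcript yields 1 fragment near its 3′ end in these libraries, so CPM was compared between genes without division by length. In WT cells *Myb* was the most abundant at 679 ± 56.4 CPM (SD, n = 3), followed by *Ikzf1*, *Id2*, *Cbfb*, *Etv6*, *Spi1*, *Runx1*, *Gfi1*, *Myc* and, at 36.7 ± 21.5 CPM (SD, n = 3), *Erg*. The order of the means in KO cells was the same. *Myb* and *Ikzf1* each stood clear of the next gene in every mouse of both genotypes. The ranges over WT mice overlapped between neighbours from *Id2* down to *Runx1*, and again between *Myc* and *Erg*. Within each WT mouse *Cbfb* was nonetheless above *Etv6* and *Etv6* above *Spi1*, which held in 3 of 4 KO mice for either pair, while the order of the other overlapping WT neighbours differed between WT mice. In KO cells the range of *Spi1* no longer met that of *Runx1*, while *Runx1* met *Gfi1*, which in WT cells it did not. By mean level over the 7 mice *Myb* was at the 98.7th percentile of the genes tested and *Erg* at the 55.0th. Together the 10 genes drew 0.200% to 0.234% of a library's gene reads.

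*Erg* encodes an ETS factor that stem cells need for their maintenance. It read 30.1, 60.8 and 19.4 CPM in WT replicates 1 to 3 and 27.0, 19.7, 46.5 and 30.6 CPM in KO replicates 1 to 4. WT replicate 2 and KO replicate 3 were high and WT replicate 3 and KO replicate 2 low, and the KO range lay inside the WT range, with WT replicate 2 above every KO mouse. Its coefficient of variation (CV, the SD as a share of the mean) was 58.5% in WT and 36.5% in KO mice, where counting alone gives 9.24% and 8.64%. The log2 fold change was -0.24 (95% interval -1.10 to 0.63). It was 0.32 without WT replicate 2, -0.54 without WT replicate 3 and -0.51 without KO replicate 3. For *Erg* these libraries bound the difference only loosely, between 0.466 and 1.54 fold.

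*Etv6* encodes an ETS repressor required for blood formation in adult marrow. Its levels were 199, 153 and 194 CPM in WT mice and 186, 187, 182 and 167 CPM in KO mice, numbered as above. WT replicate 2 was the lowest of all and the KO mice lay within the WT range. *Etv6* had a log2 fold change of -0.01 (95% interval -0.30 to 0.27, from edgeR), a fold of 0.991 with bounds of 0.814 and 1.21.

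RUNX1 and CBFB form the core binding factor, which establishes definitive blood stem cells and later shapes myeloid maturation. *Runx1* read 128, 127 and 154 CPM in WT mice and 134, 124, 105 and 112 CPM in KO mice. KO replicates 2, 3 and 4 lay below every WT mouse and KO replicate 1 lay inside the WT range. The log2 fold change was -0.20 (95% interval -0.50 to 0.09), and the exact permutation test over the 35 splits of the 7 mice gave a two-sided p of 0.2. *Cbfb* read 208, 181 and 268 CPM in WT and 265, 253, 179.6 and 199.6 CPM in KO mice. WT replicate 3 and KO replicates 1 and 2 were high and the other 4 mice low, across both genotypes. Its log2 fold change was 0.03 (95% interval -0.31 to 0.38), with CVs of 20.1% in WT and 18.3% in KO mice against 3.46% and 3.10% from counting.

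The sequences before the starts of *Runx1* and *Cbfb* are shown because a 3′ count sums over all starts of a gene, and *Runx1* has a distal and a proximal start used in different cells. They come from RefSeq on GRCm38.p6, where 8 of the 10 members matched, with *Spi1* and *Myc* without an entry. Capitals mark AGGAAG (a PU.1 motif), CCGGAAG (ETS), TGTGGT (RUNX), CACGTG (MYC E-box), TAACNG (MYB) and CAGCTG (E protein E-box) on either strand. AGGAAG and CCGGAAG both end in GGAAG and differ in the letter before it, so the same GGAAG cannot belong to both. Each upstream run holds 250 bases, and the short run holds 30 bases after the distal start of *Runx1*.

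Runx1 distal, chr16:92826075-92826324, minus strand: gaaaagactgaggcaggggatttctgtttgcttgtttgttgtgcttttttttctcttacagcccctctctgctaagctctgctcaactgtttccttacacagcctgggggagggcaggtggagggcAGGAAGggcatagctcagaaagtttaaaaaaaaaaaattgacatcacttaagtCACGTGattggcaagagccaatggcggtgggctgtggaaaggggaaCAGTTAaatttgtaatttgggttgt
Runx1 distal, after the start, chr16:92826025-92826054, minus strand: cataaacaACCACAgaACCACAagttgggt
Runx1 proximal, chr16:92697330-92697579, minus strand: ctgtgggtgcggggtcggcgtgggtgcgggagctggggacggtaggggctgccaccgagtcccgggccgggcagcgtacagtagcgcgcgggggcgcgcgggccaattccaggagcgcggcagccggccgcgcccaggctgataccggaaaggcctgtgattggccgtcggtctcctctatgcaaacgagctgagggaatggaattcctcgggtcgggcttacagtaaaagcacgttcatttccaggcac
Cbfb, chr8:105170424-105170673, plus strand: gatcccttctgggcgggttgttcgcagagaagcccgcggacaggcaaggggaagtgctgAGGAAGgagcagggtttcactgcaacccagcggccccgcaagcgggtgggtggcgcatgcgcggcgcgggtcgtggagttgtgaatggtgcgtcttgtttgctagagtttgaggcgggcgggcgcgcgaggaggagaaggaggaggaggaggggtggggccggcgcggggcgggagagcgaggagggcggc

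The full window of 300 bases around the distal start of *Runx1* held 2 RUNX motifs, both in the short run, and 1 each of the PU.1, MYC E-box and MYB motifs. The window at the proximal start held 0 of the 6 motifs, and that of *Cbfb* held 2 PU.1 motifs, 1 of them before the start. Over all 32851 windows of this length in the table, 16.8% held the RUNX motif, 35.4% the PU.1 motif, 7.15% the MYC E-box and 23.3% the MYB motif. These are matches of letters, not measured binding, and the counts do not say which start the *Runx1* reads came from.

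*Myb* encodes a factor that keeps progenitors immature and dividing. It read 736, 676 and 624 CPM in WT mice and 592, 736, 678 and 746 CPM in KO mice. The lowest and the highest mouse were both KO mice, so the WT range lay inside the KO range. *Myb* had a log2 fold change of 0.02 (95% interval -0.25 to 0.29), which bounds the fold between 0.839 and 1.22. *Myc*, a driver of growth and ribosome production, read 40.4, 50.1 and 73.3 CPM in WT and 51.3, 58.8, 37.6 and 41.9 CPM in KO mice. WT replicate 3 was the highest, and the other 6 mice were mixed. The log2 fold change of *Myc* was -0.20 (95% interval -0.65 to 0.24), and 0.07 without WT replicate 3.

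*Ikzf1* encodes Ikaros, a zinc finger factor that opens lymphoid genes and works with the NuRD complex. Its levels were 339, 419.7 and 349 CPM in WT mice and 370.0, 337, 386 and 426 CPM in KO mice. WT replicate 2 and KO replicate 4 were the highest, and the ranges were nearly the same. *Ikzf1* had a log2 fold change of 0.04 (95% interval -0.24 to 0.32, from edgeR), a fold of 1.03 with bounds of 0.848 and 1.25.

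*Spi1* was the member whose genotypes did not overlap. It read 154, 145 and 149 CPM in WT replicates 1 to 3 and 175, 163, 163 and 168 CPM in KO replicates 1 to 4. All 4 KO mice lay above all 3 WT mice, by a narrow margin. Among all genes tested, 2.37% lay wholly higher and 2.79% wholly lower in KO mice, 5.16% together, and 1 of the 10 members was among them. The means were 149 ± 4.42 CPM (SD, n = 3) and 167 ± 5.72 CPM (SD, n = 4), a fold of 1.12 with bounds of 0.935 and 1.35. The exact permutation test of log2(CPM + 1) gave a two-sided p of 0.0286, the smallest that 35 splits allow, while edgeR's quasi-likelihood test gave an unadjusted p of 0.199 and an adjusted p of 0.999. The CV of *Spi1* was 2.97% in WT and 3.42% in KO mice, against 4.14% and 3.54% from counting alone and a median of 18.3% and 19.2% over all genes tested. The spread edgeR assigns draws on all genes, and the observed spread of *Spi1* was smaller than that of counting. With KO replicate 3 left out the log2 fold change was 0.18, against 0.17 with all mice.

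Markers of mature neutrophils, cells that also express *Spi1*, had a log2 fold change above 0 for 10 of the 10 markers tested (median 0.77). Over all genes tested 49.8% were above 0. At an unadjusted p under 0.05 there were 0 of these markers, against 3.63% of all genes tested. The 10 markers are of a single cell type, so their directions are not independent. Their summed level was 7872, 8589 and 10974 CPM in WT and 15638, 8974, 24777 and 11627 CPM in KO mice, and the genotypes overlapped. The mean sum in KO mice was 1.67 times that in WT mice, and 1.32 times without KO replicate 3, a comparison added after the data were seen. Macrophage and monocyte markers summed to 687 to 764 CPM in WT and 618 to 705 CPM in KO mice, with 2 of 10 higher and 8 lower. Of these, 1 and 5 had an unadjusted p under 0.05, where all genes tested gave 1.56% higher and 2.07% lower. The genotypes did not overlap for 1 higher and 6 lower markers, beside 2.37% and 2.79% of all genes tested. In bulk RNA fewer cells of a type and less RNA per cell cannot be told apart, and the part of these cells in the level of *Spi1* was not tested.

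*Gfi1* encodes a zinc finger repressor that holds back PU.1 targets and is needed for neutrophils. It read 118, 97.7 and 115 CPM in WT and 87.5, 116, 112 and 83.97 CPM in KO mice. KO replicates 1 and 4 lay below every WT mouse and KO replicates 2 and 3 lay inside the WT range. *Gfi1* had a log2 fold change of -0.15 (95% interval -0.47 to 0.18), with an exact permutation p of 0.343. *Id2*, the inhibitor of E proteins, read 251, 280.0 and 233 CPM in WT and 248, 253, 266 and 199 CPM in KO mice. KO replicate 4 was the lowest and WT replicate 2 the highest, with the rest in between. The log2 fold change of *Id2* was -0.08 (95% interval -0.36 to 0.21).

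**Figure D2:**
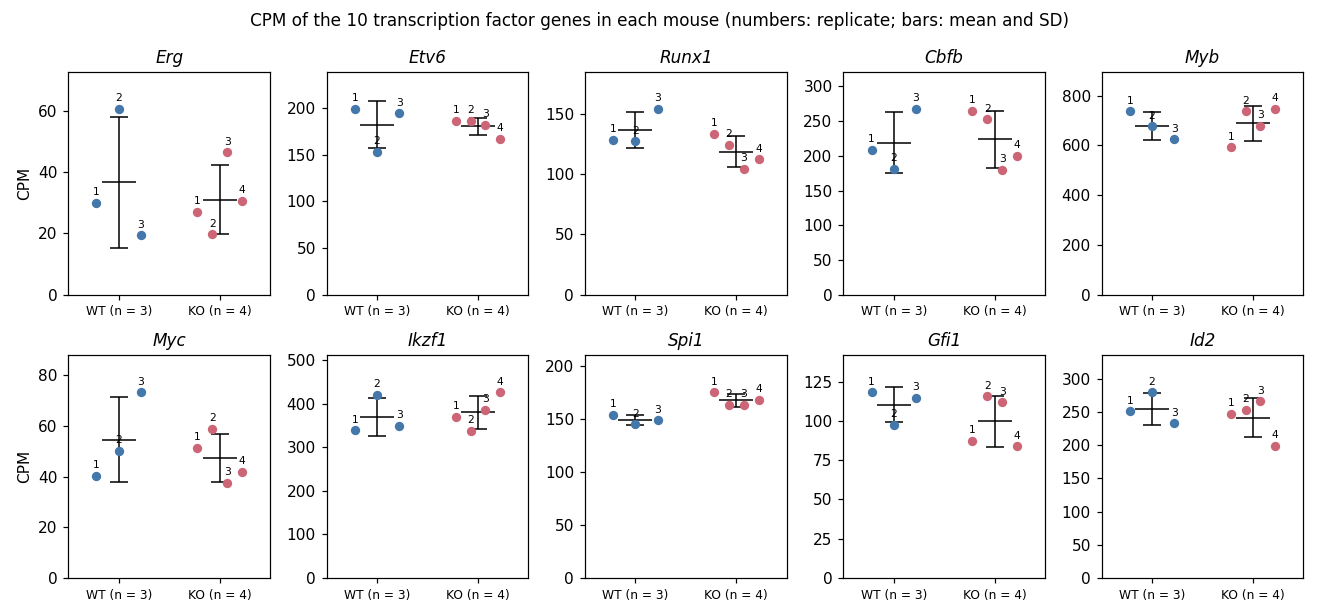
CPM of each of the 10 genes (y axis, from 0) in the 3 WT and 4 KO mice, each point a mouse with its replicate number, with the mean and SD as bars. Only for *Spi1* do the KO mice, 163 to 175 CPM, lie wholly above the WT mice, 145 to 154 CPM.

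Ratios between factors that oppose or bind each other were taken within a library, where the scaling between libraries drops out. The log2 ratio of *Spi1* to *Gfi1* counts was 0.37, 0.57 and 0.37 in WT mice and 1.00, 0.49, 0.54 and 1.00 in KO mice. KO replicates 1 and 4 were high, and the other KO mice lay within the WT range. The difference was 0.32, with a two-sided exact permutation p of 0.171 (0.343 adjusted over the 4 ratios). The log2 ratio of *Cbfb* to *Runx1* was 0.70, 0.51 and 0.80 in WT and 0.99, 1.02, 0.78 and 0.83 in KO mice. KO replicate 3 lay just below WT replicate 3, and the remaining KO mice lay above all WT mice. That difference was 0.24, with an exact permutation p of 0.0857 (0.343 adjusted), so it was not past the threshold.

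*Mxd1* encodes a protein that competes with MYC for its partner MAX and stands for exit from the cycle. The log2 ratio of *Myc* to *Mxd1* ranged from -0.24 to 0.79 in WT and from -0.95 to 0.60 in KO mice, and the difference was -0.37 (exact permutation p of 0.371, 0.495 adjusted). It was -0.59 without WT replicate 1, -0.078 without WT replicate 2, -0.62 without KO replicate 2 and -0.10 without KO replicate 3. *Tcf3* encodes an E protein that ID2 sequesters. The log2 ratio of *Id2* to *Tcf3* ranged from 1.52 to 2.14 in WT and from 1.01 to 2.38 in KO mice, and the difference was -0.04 (exact permutation p of 1, 1 adjusted). Both ratios varied more within a genotype than between the genotypes.

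**Figure D3:**
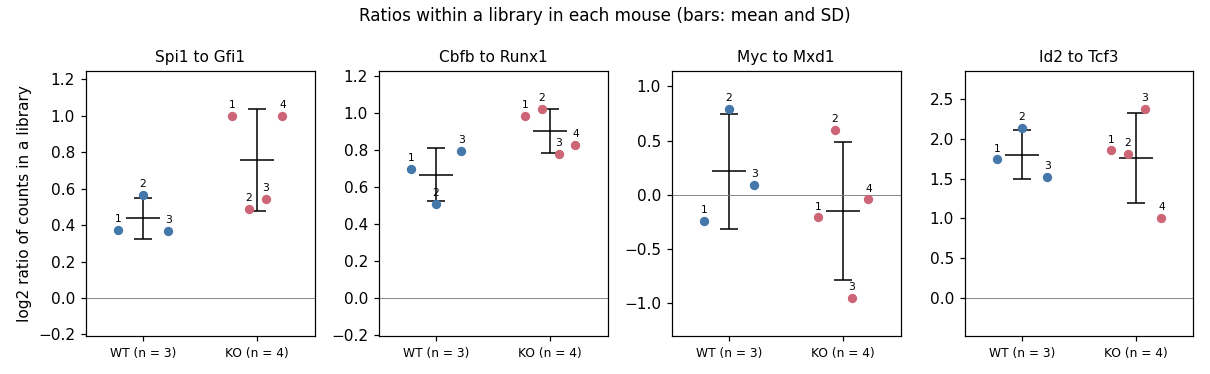
Log2 ratio of the counts of 2 genes within a library (y axis) for WT and KO mice, each point a mouse with its replicate number, with the mean and SD as bars. The *Spi1* to *Gfi1* ratio is near 1.00 in KO replicates 1 and 4 and between 0.37 and 0.57 in the other 5 mice.

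The levels of *Cbfb*, *Ikzf1*, *Etv6* and *Erg* were set beside the share of *Rn45s*, the ribosomal precursor. How many of all genes tested vary with this share was not counted. The libraries with the lowest shares were KO replicate 1 (4.94%), KO replicate 2 (9.21%) and WT replicate 3 (9.43%), and those with the highest were KO replicate 4 (18.6%) and WT replicate 2 (20.6%). *Cbfb* stood between 253 and 268 CPM in the former 3 libraries and at 181 and 199.6 CPM in the latter pair. In WT replicate 2 and KO replicate 4 *Ikzf1* was highest and *Etv6* lowest. *Ikzf1* did not follow the share at its low end. It was at 370.0 CPM in KO replicate 1, above the 337 and 349 CPM of KO replicate 2 and WT replicate 3. *Erg* was also highest in WT replicate 2, while KO replicate 4 was mid-range. A further fit, chosen after seeing the data, took the *Rn45s* share as a covariate, and gave log2 fold changes of -0.06 for *Cbfb*, 0.06 for *Erg* and 0.16 for *Spi1*, with 0 members past the threshold.

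**Figure D4:**
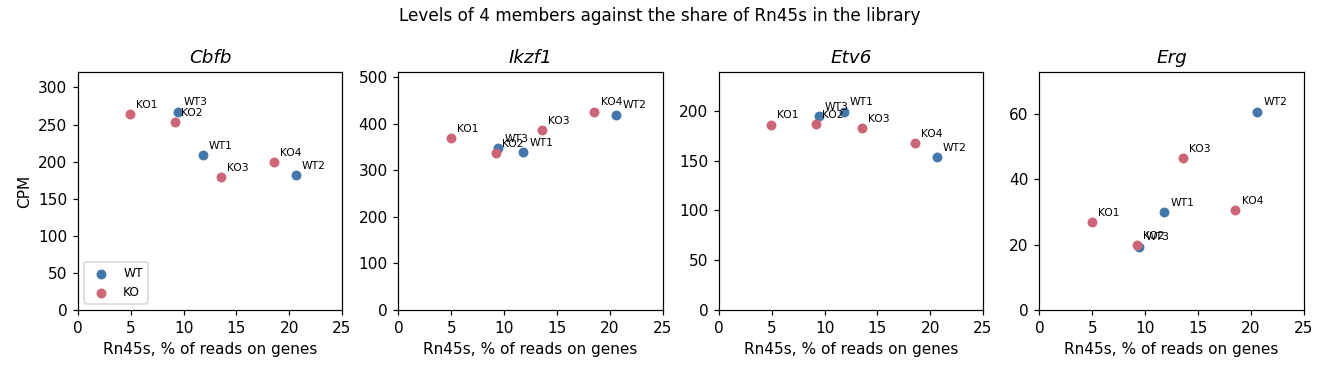
CPM of *Cbfb*, *Ikzf1*, *Etv6* and *Erg* (y axes, from 0) against the share of reads on genes that fell on *Rn45s* (x axis, percent), each point a mouse. *Cbfb* is at 253 CPM or above in the 3 libraries with shares under 10% and at 208 CPM or below in the other 4, with WT and KO mice on both sides.

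Among the members the most alike patterns over the 7 mice were those of *Runx1* and *Myc*, measured as the root mean square difference of z-scored log2(CPM + 1), which was 0.577, then *Cbfb* and *Myc* at 0.684 and *Runx1* and *Cbfb* at 0.743. The least alike were *Ikzf1* and *Etv6* at 1.94. Across all genes tested the closest gene was *Mosmo* for *Myc* (0.139), *Slc33a1* for *Erg* (0.140), *Hist1h1b* for *Ikzf1* (0.141) and *Unc119b* for *Cbfb* (0.161). For the other members it was *Rpl17* for *Id2* (0.180), *Zfp787* for *Etv6* (0.191), *Rab24* for *Spi1* (0.191), *2010001A14Rik* for *Runx1* (0.212), *5430405H02Rik* for *Myb* (0.213) and *Gm14325* for *Gfi1* (0.277). The median over all genes of the difference to their own closest gene was 0.197, so matches this close were usual over 7 mice.

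The families, partners and targets of the members were read from the same fit. Of 148 such genes in 11 lists, 138 were tested, 71 had a log2 fold change above 0 and 67 below, and 0 had an adjusted p under 0.25. At an unadjusted p under 0.05 there were 5 higher and 4 lower, where the shares over all genes tested were 1.56% and 2.07%. The genotypes did not overlap for 6 higher and 5 lower genes, beside the 2.37% and 2.79% of all genes given above. The median log2 fold change was 0.0053, near that of all genes tested.

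Among the partners of the stem cell network, 8 of 10 tested had a log2 fold change below 0, with a median of -0.27. *Lmo2*, the bridging subunit between TAL1 and its DNA-binding partners, read 150.1, 174 and 156 CPM in WT and 123, 139, 132 and 134 CPM in KO mice. All KO mice lay below all WT mice (log2 fold change -0.28, adjusted p of 0.999 in edgeR's test). *Lyl1*, a relative of *Tal1*, had a log2 fold change of -0.33 (SE 0.18) with overlapping genotypes. In the ETS family 11 of 15 tested were below 0, with a median of -0.18 and 0 past the adjusted threshold. *Spic*, an ETS factor of red pulp and marrow macrophages, read 6.80, 3.92 and 3.99 CPM in WT and 2.72, 0.623, 1.12 and 1.25 CPM in KO mice, on 3 to 31 reads. *Elf1* stood at 133 ± 22.2 CPM (SD, n = 3) and 106 ± 7.38 CPM (SD, n = 4), with a log2 fold change of -0.32 (SE 0.14). *Elk3* and *Erf*, named after their values were seen, also did not overlap, with log2 fold changes of -0.18 and 0.52.

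Among the RUNX and CBF partners 4 of 6 tested were above 0. *Prmt1*, an arginine methyltransferase that modifies RUNX1, read 427, 359 and 487 CPM in WT and 532, 532, 522 and 531 CPM in KO mice. All KO mice lay above all WT mice, and the fold was 1.25 (edgeR adjusted p of 0.999). *Sin3a*, a corepressor scaffold, had a log2 fold change of 0.23 (SE 0.17). For the MYC network and MYB family, 6 of 12 were above and 6 below 0, with *Mxi1*, a MAX partner, at 30.7 ± 2.26 CPM (SD, n = 3) and 36.6 ± 1.39 CPM (SD, n = 4) without overlap, and *Mybl2* at a log2 fold change of 0.26 (SE 0.27). The Ikaros family and NuRD subunits were also evenly split, 6 and 6. *Ikzf2*, which encodes Helios, read 58.8, 67.5 and 68.6 CPM in WT and 62.4, 47.6, 37.7 and 40.6 CPM in KO mice, so that only KO replicate 1 reached the WT range. *Mta1* had a log2 fold change of -0.24 (SE 0.19). *Ikzf5*, named after its values were seen, lay lower in KO mice without overlap (log2 fold change -0.19).

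The corepressors of GFI1 that act with the demethylase LSD1 gave 2 of 7 above and 5 below 0, with *Rcor2* at -0.57 (SE 0.38) and *Rcor3* at -0.29 (SE 0.23) on the log2 scale. Of the ID and E proteins 1 of 5 was above 0, which was *Id3*, at 16.4 ± 5.87 CPM (SD, n = 3) and 26.5 ± 9.598 CPM (SD, n = 4). *Tcf4*, an E protein gene, had a log2 fold change of -0.04 (SE 0.14). The monocyte and granulocyte fate factors were split 6 to 5. *Klf4*, which promotes monocytes, read 210.2, 153 and 138 CPM in WT and 189.9, 253, 248 and 395 CPM in KO mice. The ranges overlapped through WT replicate 1 and KO replicate 1, and the adjusted p was 0.999 in edgeR's test, while it was 0.0045 without the filter on low counts. *Jun*, an AP-1 partner of PU.1, had a log2 fold change of 0.58 (SE 0.31).

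Known targets of PU.1, MYC and MYB were read in the same way, with 0 past the adjusted threshold. Of the PU.1 targets 15 of 21 tested were above 0, with a median of 0.10. *Csf2ra*, a receptor chain for GM-CSF, read 27.4, 23.0 and 27.9 CPM in WT and 31.3, 31.8, 42.6 and 34.9 CPM in KO mice. The genotypes did not overlap, and the log2 fold change was 0.43 (SE 0.20). *Fcgr3*, an Fc receptor gene, had a log2 fold change of 0.25 (SE 0.15). Of the MYC targets 21 of 29 tested were above 0, with a median of 0.11, where *Myc* itself was at -0.20. *Mybbp1a* and *Nop56*, nucleolar proteins of ribosome production, had log2 fold changes of 0.27 (SE 0.14) and 0.28 (SE 0.17). *Grwd1*, named after its values were seen, lay higher in KO mice without overlap (0.21). Of the MYB targets 4 of 12 were above 0, with a median of -0.15, and *Adora2b*, an adenosine receptor gene, read 4.17, 3.08 and 3.19 CPM in WT and 7.77, 5.61, 11.4 and 6.23 CPM in KO mice. Its log2 fold change was 1.15 (SE 0.42, edgeR adjusted p of 0.999). None of these lists held a gene past the adjusted threshold, and each count is set against 49.8% of all genes tested above 0.

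**Figure D5:**
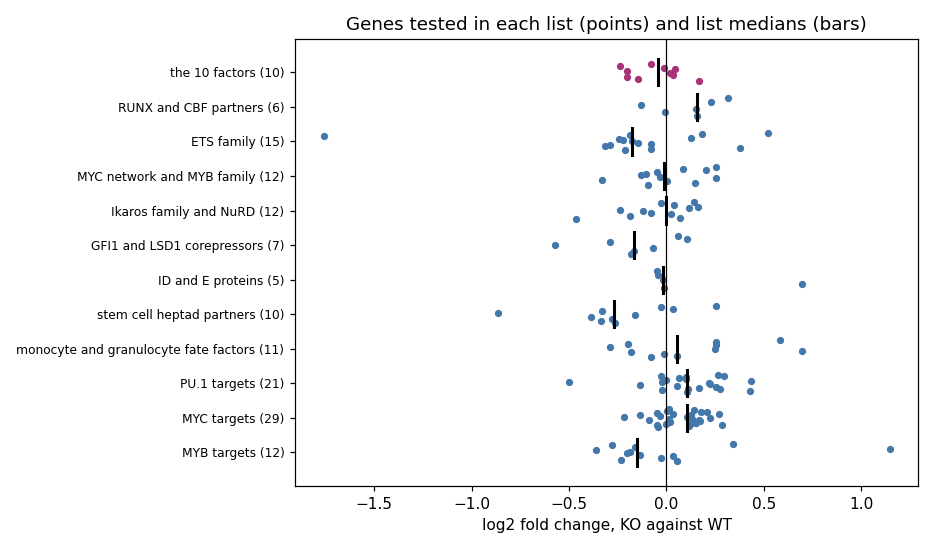
Log2 fold change, KO against WT (x axis), of each gene tested in the list of the 10 factors and in 11 lists of their families, partners and targets, with list medians as bars and the number tested in brackets. The 10 factors lie between -0.24 and 0.17, and list medians lie between -0.27 and 0.15.

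The markers of other marrow cells held 0 genes past the adjusted threshold. The summed level of 10 eosinophil, basophil and mast cell markers was 4210 to 4645 CPM in WT and 2874 to 3918 CPM in KO mice without overlap, and 9 of the 9 tested were below 0. Of these, 4 had an unadjusted p under 0.05 and 4 did not overlap between genotypes, where the shares of all genes tested that were lower were 2.07% and 2.79%. B cell markers summed to 78.1 to 231 CPM in WT and 105 to 345 CPM in KO mice, T and NK cell markers to 743 to 783 and 564 to 790.0 CPM, erythroid markers to 156 to 323 and 87.6 to 343 CPM, and megakaryocyte markers to 228 to 371 and 105 to 893 CPM. All 4 of these sums overlapped between genotypes. At an unadjusted p under 0.05 there were 1 of 9 B cell markers (lower in KO), 2 of 10 T and NK cell markers (1 higher and 1 lower), 0 of 8 erythroid and 0 of 6 megakaryocyte markers tested, where all genes tested gave 3.63%. The part of these cells in the members' levels was not tested.

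The genes lie on GRCm38, by GENCODE M21, as follows. *Erg* is on chromosome 16 from 95359169 to 95586593, *Runx1* on chromosome 16 from 92601466 to 92826149, *Etv6* on chromosome 6 from 134035700 to 134270158, and *Cbfb* on chromosome 8 from 105170674 to 105217989. *Myb* is on chromosome 10 from 21124935 to 21160984, *Myc* on chromosome 15 from 61985391 to 61990374, and *Ikzf1* on chromosome 11 from 11685003 to 11772926. *Spi1* is on chromosome 2 from 91082390 to 91115756, *Gfi1* on chromosome 5 from 107716657 to 107726036, and *Id2* on chromosome 12 from 25093799 to 25097140. Exons of *Gfi1*, *Runx1*, *Myb* and *Etv6* overlap those of a gene annotated on the opposite strand. The strand counted is not given in the sources used here. Whether reads on the overlapping parts were counted for a gene or left out as ambiguous is therefore not known.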

How the data were processed

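RNA-seq was carried out on lin- bone marrow cells of 3 WT and 4 KO mice. The labels give replicate numbers, and the legend of the paper's heat map states that each row is a single animal. Libraries were made from 500 ng of RNA, primed on the poly(A) tail, with a single read of 75 bp. Per the methods, STAR, GRCm38, Ensembl 84 annotation and DESeq2 served for alignment, quantification and testing. The authors deposited raw counts of reads per gene symbol, without normalization. The 5 tally rows of each table (27.0% to 31.6% of reads on no gene, 1.99% to 2.40% ambiguous) were left out here. Samples were grouped by the genotype in the labels.

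Counts were scaled with TMM factors, filtered with filterByExpr and tested with the quasi-likelihood test of edgeR 4.0.16 in R 4.3.3, with Benjamini-Hochberg adjustment over 11265 genes and no replicate block. The common biological CV was 21.3%. On log2(CPM + 1), members were also given an exact permutation test (two-sided), as were the ratios, with 0.5 added to each count. DESeq2 1.42.0, limma 3.58.1, other scalings and filters and leaving out mice were alternatives. The fit was tested on simulated counts. Same-genotype libraries all differed beyond sampling noise.

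The members and gene lists were chosen with earlier results of these data known. Named were *Hdgfl2*, the members, genes of the ratios, the genes called and the 2 with the smallest p in each list of families, partners or targets, and the gene most like each member.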

Additional observations from a re-analysis of the deposited data

Results flagged for a closer look

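Among 46 results tested for a KO mouse far from the other 3 KO mice, 2 stood out, where chance gives about 2.3. *Prmt1* was at 522 CPM in KO replicate 3 while the other KO mice lay within 531 to 532 CPM, so that a small gap counted as large. The summed megakaryocyte markers were at 893 CPM in KO replicate 4, and the next highest KO mouse was at 191 CPM.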

How the results depend on the processing

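The number of members past the threshold was 0 in all 15 other fits, and of 150 recomputed log2 fold changes of members 130 kept their direction. *Spi1*, *Gfi1* and *Runx1* kept it in every fit, over 0.15 to 0.20, -0.22 to -0.07 and -0.26 to -0.11. A replicate block gave -0.024 for *Myb*, -0.014 for *Ikzf1*, 0.031 for *Etv6* and 0.0081 for *Id2*. Same-numbered mice had correlations of -0.02, -0.21 and -0.16 between their deviations from the genotype mean. Differently numbered mice had -0.12 to 0.22. The labels give only replicate numbers, and with 3 and 4 mice these values cannot decide whether the numbers pair the mice. With 1 mouse left out the range was -0.085 to 0.20 for *Cbfb* (below 0 without WT replicate 2, KO replicate 1 or KO replicate 2), -0.038 to 0.089 for *Myb* (below 0 without WT replicate 3, KO replicate 2 or KO replicate 4), -0.37 to 0.070 for *Myc* (above 0 without WT replicate 3), -0.019 to 0.14 for *Ikzf1* (below 0 without WT replicate 1 or KO replicate 4), -0.12 to 0.063 for *Etv6* (above 0 without WT replicate 1, WT replicate 3 or KO replicate 4), -0.54 to 0.32 for *Erg* (above 0 without WT replicate 2) and -0.14 to 0.0045 for *Id2* (above 0 without KO replicate 4). The *Rn45s* share as a covariate put *Cbfb* at -0.059 and *Erg* at 0.062. The 4 ratios kept their direction except that of *Id2* to *Tcf3*, which ran from -0.24 to 0.22 with 1 mouse left out, above 0 without WT replicate 2 or KO replicate 4, but that of *Myc* to *Mxd1* ran from -0.62 to -0.078 and that of *Cbfb* to *Runx1* from 0.16 (without WT replicate 2) to 0.30. Over all genes 2 passed the threshold. The number was 21 with DESeq2, 41 without a filter on low counts, 1 with at least 10 counts in every mouse, 1 with the replicate block, 8 with the covariate, and 2 to 7 with 1 mouse left out, of which 7 without WT replicate 1 and 4 without KO replicate 1. Of the genes in the partner and target lists 1, *Klf4*, passed without the filter. The cause was not tested. With 3 and 4 mice the intervals of the members stayed within 0.5 of 0 on the log2 scale, except those of *Erg* and *Myc*.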
